A study of Mus musculus with 16 samples.

Results

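Interferon-stimulated genes were followed in ageing mouse muscle through a fixed list of 34 genes that interferons are known to induce. A probe belonged to a gene when its RefSeq transcript was a transcript of that gene. Of the 34 genes, 32 had at least 1 such probe and 30 passed the filter on dim probes, among 20122 RefSeq genes with a probe and 21797 genes tested in all. Mx1 and Mx2 were not analysed here, because no probe was matched to them. Total RNA came from gastrocnemius, a calf muscle, of untreated mice of the C57Bl/6J strain, all female. The ages were 3, 15, 24 and 29 months, with 4 samples each, and each sample was labelled with Cy3 and put on 1 array. The labels do not say that each sample was a separate mouse, so the p-values measure the scatter among samples, part of which may be technical. The youngest 8 samples (3 and 15 months) shared 1 slide and the oldest 8 (24 and 29 months) another. Setting 15 against 3 months, or 29 against 24 months, therefore stays within a slide. For all other pairs of ages, age and slide cannot be told apart. The arrays of 15 and 24 months lay in row 1 of their slides and those of 3 and 29 months in row 2. Within a slide, age and row therefore cannot be told apart.

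Cells that sense viral RNA or DNA secrete interferons. Type I interferons bind the receptor IFNAR and lead to a complex that holds STAT2 and IRF9 and binds the interferon-stimulated response element (ISRE) in promoters, while interferon gamma binds its own receptor and acts at a different element, GAS. The induced proteins bind viral RNA, degrade RNA, restrict vesicles that hold microbes, or feed back on the pathway, and their transcripts serve as a common readout of interferon signalling in tissues, muscle included.

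The ISRE was searched for in the promoters of the listed genes. RefSeq promoter windows (GRCm38.p6, 250 bases before to 50 bases after the start of the gene) were held for 24 of the 34 genes. The ISRE core (GAAA, then NN for any pair of bases, then GAAA), searched on both strands and with overlapping matches allowed, was found in 14 of these 24 (58.3%), against 3.99% of 27025 genes with a window. The GAS core TTCNNNGAA was found in 6 of the 24 (25%), against 9.55% of genes. The 6 stretches below are shown because they hold the ISRE core in the members of widest range over the arrays. All are written 5′ to 3′ on the strand of the gene, with every base of an ISRE core in capitals. Igtp lies at chr11:58199482-58199555 on the plus strand, Oas1a at chr5:120907526-120907585 on the minus strand, Irgm1 at chr11:48871421-48871490 on the minus strand, Bst2 at chr8:71537547-71537642 on the minus strand and Gbp3 at chr3:142559959-142560043 on the plus strand. In these 5 genes the stretch is upstream of the start. In Ifih1 it lies after the start, at chr2:62646206-62646233 on the minus strand.
Igtp: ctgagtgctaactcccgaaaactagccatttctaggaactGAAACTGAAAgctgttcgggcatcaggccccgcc
Oas1a: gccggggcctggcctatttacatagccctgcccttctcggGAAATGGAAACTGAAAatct
Irgm1: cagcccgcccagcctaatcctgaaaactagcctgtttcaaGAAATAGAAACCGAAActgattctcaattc
Bst2: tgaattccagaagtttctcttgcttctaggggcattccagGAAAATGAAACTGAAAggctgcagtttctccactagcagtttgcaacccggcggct
Gbp3: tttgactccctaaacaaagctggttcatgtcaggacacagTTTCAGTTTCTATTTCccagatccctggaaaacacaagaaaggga
Ifih1: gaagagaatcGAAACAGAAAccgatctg
Oas1a, Irgm1, Bst2 and Gbp3 each hold 2 overlapping cores, and in Gbp3 both lie on the opposite strand. Igtp and Ifih1 hold 1 each. A match describes letters and is not evidence of binding in these muscles.

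The level used throughout is log2 of the processed signal minus the 75th percentile of its array, so 0 is the brightness of that percentile and a step of 1 is a doubling. Between 48.0% and 60.9% of the spots of an array were well above background, and none was saturated. The 10 muscle fibre markers were bright on every array, with a summed linear level of 9011 to 13330 relative to the 75th percentile. Among the members, Oas3 was well above background on 1 array of 16 and Dhx58 on 9, not on all 4 arrays of any age, so neither was tested. The number of arrays limits the precision of every value below.

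None of the 30 members tested was called between any of the ages in the fit over all 16 arrays (limma, Benjamini-Hochberg adjusted over all genes tested). The count was 0 of 30 for 29 against 3 months, where 14.8% of all genes tested were called, and 0 of 30 for 24 against 3 months, where 4.43% were called. It was also 0 of 30 for 24 against 15 months (0.101% of all genes called), for 15 against 3 months (0.908%) and for 29 against 24 months (1.51%). The difference between the 2 within-slide steps called 0 of 30, with 0.619% of all genes. At an unadjusted p under 0.05 the members numbered 3, 2, 5, 4, 2 and 6 in the same order, and the lowest adjusted p was 0.0883, for Oas2 at 29 against 3 months. The members nevertheless varied widely, and most of that variation lay between arrays of the same age.

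Their spread was wider on the slide of the 2 later ages. The SD of a member over the 4 arrays had a median of 0.157 (log2) at 3 months, 0.181 at 15 months, 0.379 at 24 months and 0.985 at 29 months. No member had an SD above 1 at 3 or 15 months, against 3 members at 24 months and 12 at 29 months. The wider scatter was not confined to the members. Array weights fitted over all genes, lower for more scatter, were 0.274 and 0.4 on 29-month arrays 1 and 3. They were 0.364 and 0.524 on 24-month arrays 2 and 4, and 0.994 to 2.085 at 3 and 15 months. Single arrays set the later values: the median SD was 0.504 at 29 months without array 1 of that age, and 0.206 at 24 months without array 2. Arrays are named here by age and by the replicate number in the sample titles.

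**Figure D1:**
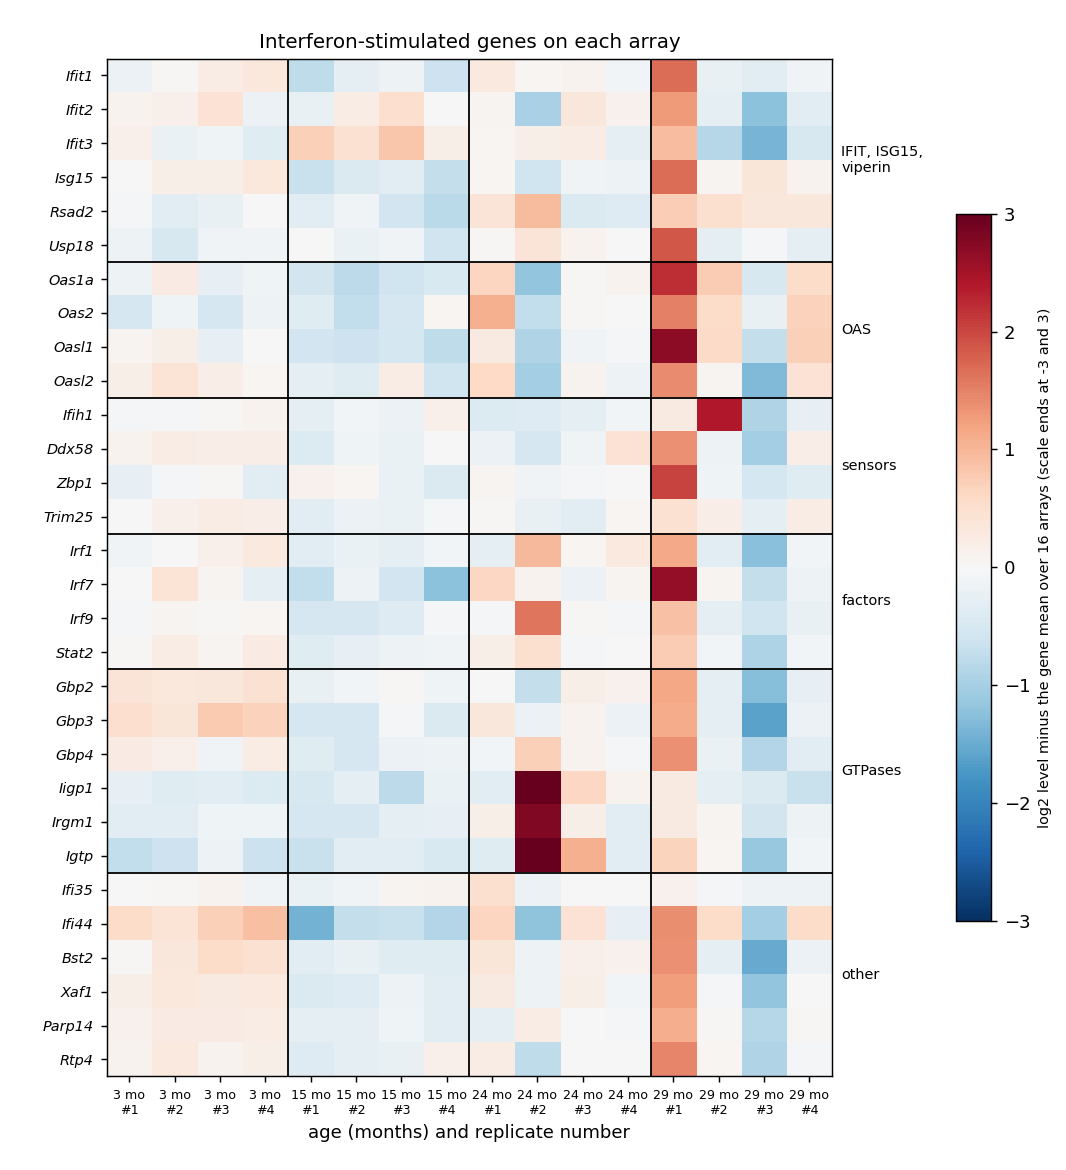
Level of each of the 30 tested interferon-stimulated genes on each of 16 arrays (log2, minus the mean of that gene over the arrays; red higher, blue lower; the colour scale ends at -3 and 3). Columns are arrays by age, lines separate the ages and the roles, and the column of 29-month array 1 is red in nearly every row while that of 29-month array 3 is mostly blue.

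For these genes 2 arrays of 29 months stood apart, and some members did on 1 array of 24 months. On 29-month array 1, 23 of the 30 members had their highest level of all 16 arrays, against 6.83% of all genes tested. All 30 lay above the median of the other 3 arrays of that age, by a median of 1.42 on the log2 scale, and 20 lay more than 1 above it, against 6.75% of all genes. On 29-month array 3, 18 of the 30 had their lowest level, against 6.84% of all genes, with a median distance of -0.91 from the other 3. On 24-month array 2 the members split. There 5 had their highest level of all arrays (Iigp1, Irgm1, Igtp, Irf9 and Rsad2). On that array 18.4% of all genes had theirs, so this count does not set the members apart. The same 5 lay more than 1 above the median of the other 3 arrays of 24 months, against 4.22% of all genes. In contrast, 4 others (Oas1a, Oasl2, Ifit2 and Ifi44) lay more than 1 below that median. The mean level of the members, centred per gene, was 1.24 on 29-month array 1 and -0.76 on 29-month array 3, and lay between -0.39 and 0.21 on the other 14.

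Markers of lymphocytes were high on 29-month array 1 as well. T and NK cell markers had 12 of 20 tested, and 10 of the 12 were highest on 29-month array 1. Over all 20 markers, tested or not, the summed linear level was 29.8 to 33.3 at 3 months, 25.6 to 33.7 at 15 months and 30.1 to 39.7 at 24 months. At 29 months it was 173.7 on array 1, with 30.0 to 31.6 on arrays 2 to 4. The chemokine gene Ccl5 alone made up 84.2 of the 173.7, and without it the sum was 89.6 on that array and 25.3 to 38.4 on the other 15. Cd3d, a part of the T cell receptor complex, read 3.19 there and -5.78 to -0.54 elsewhere, and was well above background on 4 arrays in all. Gzmb, a granule protease of killer cells, read 2.22 there and was well above background on no other array. B and plasma cell markers, with 6 of 10 tested, had a centred mean of 1.99 on that array and 1.67 on 24-month array 4, where the T and NK markers had 0.71, their second highest, and the members had -0.03. Lymphocyte lists were not alone in this. The 10 macrophage markers tested had 0.69 on 29-month array 1, their highest, with 0.64 on 24-month array 4 and 0.62 on 29-month array 4. They had -0.49 on 29-month array 3 and -0.98 on 24-month array 2. The 4 plasmacytoid and dendritic cell markers tested were also highest on 29-month array 1, at 0.60. Muscle fibre markers had -0.34 on 29-month array 1. On 24-month array 2 and 29-month array 3, where 9 fibroblast markers had centred means of -1.84 and -1.63, the T and NK markers had 0.37 and -0.11. In bulk RNA, more cells of a type and more RNA per cell cannot be told apart. The part of these cells in the levels of the members was not tested.

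**Figure D2:**
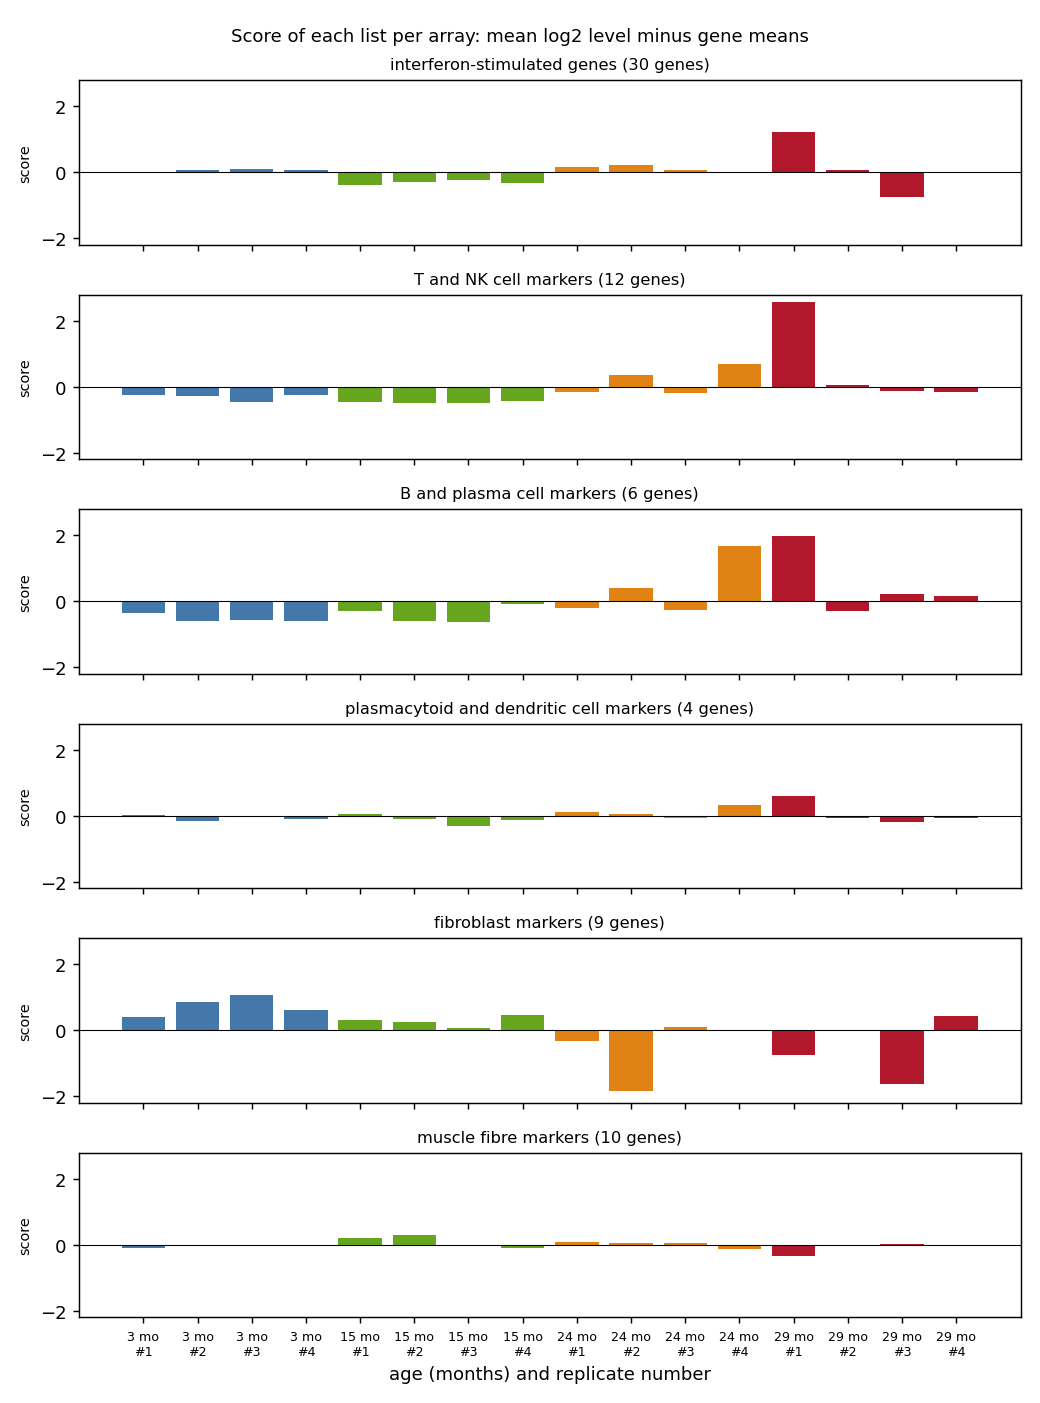
Mean log2 level, centred per gene, of the interferon-stimulated genes and of 5 marker lists on each of 16 arrays, coloured by age (blue 3, green 15, orange 24, red 29 months). The bars of the members (1.24) and of the T and NK cell markers (2.59) are both tallest on 29-month array 1, and the B and plasma cell bar is tall on 24-month array 4 as well.

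Among the effectors of the IFIT and ISG15 group, 29-month array 1 carried the highest level of 5 of 6 genes. IFIT proteins bind foreign RNA, ISG15 is a ubiquitin-like modifier, USP18 removes it and blunts receptor signalling, and viperin (Rsad2) makes a chain-terminating nucleotide. Isg15 read 1.01, 1.19, 1.18 and 1.33 at 3 months, 0.34, 0.56, 0.65 and 0.27 at 15 months, 1.05, 0.41, 0.90 and 0.84 at 24 months, and 2.68, 1.09, 1.36 and 1.11 at 29 months. All 4 arrays of 15 months lay below those of 3 months, and all 4 of 29 months above those of 24 months. Its change of -0.72 ± 0.27 (SE) at 15 against 3 months had a limma adjusted p of 0.313, and that of 0.76 ± 0.27 at 29 against 24 months had 0.198. A dimmer second probe of Isg15 was likewise highest on 29-month array 1, at -1.24, with the other arrays at -5.75 to -2.79.

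Ifit3 ran the other way within the first slide. It read 1.24, 0.98, 1.36 and 0.71 at 15 months, against 0.68, 0.32, 0.40 and 0.16 at 3 months, with no overlap and a change of 0.68 ± 0.35 (SE, limma adjusted p = 0.528). It was the 1 member whose 15-month arrays all lay above those of 3 months, and Ifit1, of the same family, had a change of -0.56 ± 0.33 in the same comparison. Rsad2 read -0.38, -0.66, -0.79 and -0.80 at 29 months, against -1.17, -1.46, -1.34 and -1.13 at 3 months. It was the 1 member whose 29-month arrays did not overlap those of 3 months, with a change of 0.62 ± 0.26 (SE, limma adjusted p = 0.122), and on 29-month array 1 it lay 0.41 above the median of the other 3, where the members' median was 1.42. The share of all genes with every 29-month array above was 8.48%, and with every one below it was 11.2%, where the members had 0. Ifit2 was dim, and at 29 months it was well above background on 2 of 4 arrays.

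The OAS enzymes make a short oligoadenylate that activates the nuclease RNase L, and the OAS-like proteins are their relatives. Oasl1 read -1.77, -1.67, -2.10 and -1.84 at 3 months, -2.43, -2.46, -2.39 and -2.62 at 15 months, -1.58, -2.74, -1.95 and -1.89 at 24 months, and 0.84, -1.27, -2.57 and -1.12 at 29 months. Oas1a read -0.55, -0.16, -0.64 and -0.52 at 3 months, -0.95, -1.20, -0.99 and -0.85 at 15 months, 0.25, -1.59, -0.37 and -0.29 at 24 months, and 1.82, 0.36, -0.87 and 0.14 at 29 months. Both were low on all 4 arrays of 15 months without overlap with 3 months, and both were highest on 29-month array 1 and low on 24-month array 2 and 29-month array 3. Oasl2 read -1.09, -0.86, -1.07 and -1.21 at 3 months, -1.53, -1.63, -1.06 and -1.86 at 15 months, -0.68, -2.29, -1.16 and -1.42 at 24 months, and 0.15, -1.19, -2.60 and -0.84 at 29 months, so each age overlapped the next.

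The same 2 arrays were the low ones in all 4 OAS and OAS-like genes tested. On 24-month array 2 the 4 genes lay 0.78 to 1.30 below the median of the other 3 arrays of that age, and on 29-month array 3 they lay 0.92 to 1.77 below. Without 29-month array 3 the fit called Oas2 and Oasl1 higher at 29 than at 3 months, with changes of 1.24 and 1.33 (limma adjusted p = 0.0307 and 0.0441), where 12.7% of all genes were called. With all arrays their changes were 0.95 ± 0.36 and 0.81 ± 0.48 (SE). Oas3 was well above background on 29-month array 1 alone, where its probe read -2.0 against -5.65 to -3.30 on the other 15.

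MDA5 (Ifih1) and RIG-I (Ddx58) detect viral RNA in the cytosol, LGP2 (Dhx58) tunes them, TRIM25 is a ubiquitin ligase of the RIG-I pathway and ZBP1 senses unusual nucleic acid folds. Ifih1 read -0.62, -0.60, -0.53 and -0.45 at 3 months, -0.86, -0.64, -0.74 and -0.42 at 15 months, -0.98, -0.96, -0.84 and -0.65 at 24 months, and -0.29, 1.85, -1.46 and -0.80 at 29 months. Its high array was 29-month array 2, which was highest for no other member, and a second Ifih1 probe was well above background on no array, so it gives no check. Zbp1 had an SD of 0.09 at 24 months and 1.19 at 29 months, where array 1 read 0.63 and the other 3 read -1.92 to -1.53. A second Zbp1 probe was well above background on that array alone, at 0.19 against -6.01 to -3.31. Dhx58 was also highest on 29-month array 1, at -1.59 against -4.21 to -3.0 on the other arrays. Ddx58 and Trim25 were each below 3 months on all 4 arrays of 15 months, with changes of -0.37 ± 0.35 and -0.34 ± 0.14 (SE), and Trim25 moved by 0.78 over all 16 arrays, the second smallest range of the list after Ifi35.

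Among the transcription factors, IRF7 drives a second wave of type I interferon, STAT2 and IRF9 form the complex on the ISRE, and IRF1 acts after both interferon types. Irf7 read -3.03, -2.61, -2.93 and -3.30 at 3 months, -3.75, -3.17, -3.60 and -4.25 at 15 months, -2.39, -2.92, -3.19 and -2.94 at 24 months, and -0.37, -2.93, -3.74 and -3.16 at 29 months. On 29-month array 1 it lay 6.91-fold above the median of the other 3, the widest such gap of any member on that array, and without that array the sign of its 29 against 3 month change turned to -0.31. It was well above background on 2 of 4 arrays at 15 months and on 3 at 29 months. Irf9 had its highest level, 2.35, on 24-month array 2, against 0.68, 0.77 and 0.70 on the others of that age. Irf1 was high on both that array (2.54) and 29-month array 1 (2.71), and Stat2 differed from its age group by less than 1 on every array.

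The immunity-related GTPases (IRG: Iigp1, Irgm1, Igtp) and the guanylate-binding proteins (GBP: Gbp2, Gbp3, Gbp4) take part in defence against pathogens held in vacuoles. Both families are strong targets of interferon gamma in mouse cells. Igtp had the widest range of the list. It read 1.53, 1.65, 2.11 and 1.62 at 3 months, 1.60, 1.92, 1.91 and 1.81 at 15 months, 1.90, 6.36, 3.33 and 1.92 at 24 months, and 2.93, 2.31, 1.13 and 2.17 at 29 months. Iigp1 read 0.19, 0.07, 0.10 and 0.01 at 3 months, -0.05, 0.13, -0.34 and 0.23 at 15 months, 0.12, 4.29, 1.05 and 0.53 at 24 months, and 0.70, 0.16, -0.01 and -0.22 at 29 months. Irgm1 read 1.58, 1.54, 1.75 and 1.75 at 3 months, 1.39, 1.39, 1.59 and 1.65 at 15 months, 2.07, 4.66, 2.07 and 1.58 at 24 months, and 2.15, 1.96, 1.35 and 1.73 at 29 months.

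All 3 IRG genes were far above every other array on 24-month array 2, and Igtp and Iigp1 were next highest on 24-month array 3. On array 2 they lay 21.8-fold (Igtp), 13.5-fold (Iigp1) and 6.03-fold (Irgm1) above the median of the other 3 arrays of that age. Second probes of Iigp1 and Irgm1 were highest on the same array, at 2.60 against -4.81 to -1.04 and at 1.77 against -1.16 to -0.36. Irgm2, named after its values were seen, is the next gene to Igtp in the RefSeq annotation of chromosome 11, and it too was highest there, at 6.35 against 1.29 to 2.94 on the other arrays. These genes belong to a family of similar sequences, and whether a probe also reads a relative was not tested. The mean change of the 3 genes at 24 against 3 months was 1.65 ± 0.72 for Igtp, 1.41 ± 0.63 for Iigp1 and 0.94 ± 0.47 for Irgm1 (SE; limma adjusted p = 0.208 for Igtp and 0.218 for Iigp1). Without array 2 of 24 months these were 0.65, 0.48 and 0.25.

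The 3 GBP members differed on that array. Against the median of the other 3 arrays of 24 months, Gbp2 and Gbp3 lay 0.82 and 0.28 below and Gbp4 lay 0.76 above. Of the relatives outside the list, Gbp6 and Gbp7 (named after values were seen) lay 2.49 and 1.26 above. On the first slide the members ran alike: at 15 months Gbp2, Gbp3 and Gbp4 were all below 3 months on every array, and Gbp3 read -1.08, -1.07, -0.60 and -0.99 at 15 months, against -0.06, -0.20, 0.21 and 0.13 at 3 months. Its change was -0.96 ± 0.38 (SE; limma adjusted p = 0.350). At 24 months Gbp2 and Gbp3 were still below 3 months on every array. At 29 months 3 of the 4 arrays were too, while array 1 read 0.96 for Gbp2 and 0.56 for Gbp3.

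**Figure D3:**
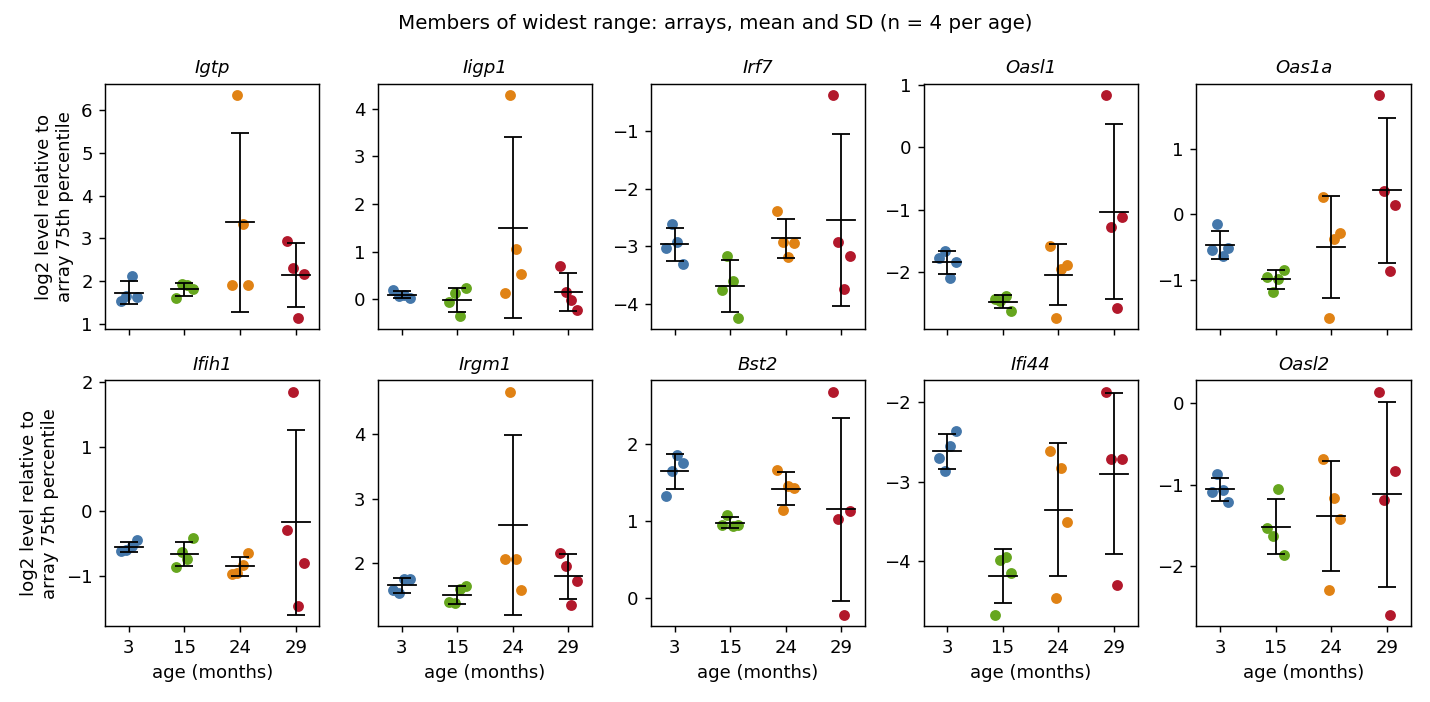
Levels of the 10 members of widest range on the 16 arrays, by age in months, as log2 level relative to the 75th percentile of the array; points are arrays, the line is the mean and the bar the SD (n = 4). Igtp, Iigp1 and Irgm1 have 1 array at 24 months (6.36, 4.29 and 4.66) above all others, Irf7 and Oasl1 have 1 array at 29 months (-0.37 and 0.84) above all others, and Ifih1 has a different one (1.85).

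Of the remaining members, tetherin (Bst2) holds budding virus at the cell surface, Xaf1 promotes cell death, Parp14 is an ADP-ribosyltransferase, Rtp4 is a receptor transporter and Ifi44 restricts virus growth. Bst2 read 1.33, 1.65, 1.85 and 1.75 at 3 months, 0.95, 1.08, 0.93 and 0.95 at 15 months, 1.67, 1.14, 1.45 and 1.42 at 24 months, and 2.68, 1.02, -0.22 and 1.13 at 29 months. It was lower at 15 months than at both 3 and 24 months without overlap. Ifi44 read -2.71, -2.86, -2.55 and -2.36 at 3 months, -4.68, -3.98, -3.94 and -4.15 at 15 months, -2.61, -4.46, -2.82 and -3.51 at 24 months, and -1.87, -2.71, -4.30 and -2.72 at 29 months. It was well above background on no array at 15 months, on 2 at 24 months and on 3 at 29 months, so the values at 15 months are bounds. The level of Ifi44 at 15 months was at least 2.09-fold lower than at 3 months. This bound takes the higher of the dimmest signal well above background and the probe's own signal on each array, and was not tested. The fitted change, from the readings as they stand, was -1.57 ± 0.44 (SE, limma adjusted p = 0.126). Xaf1 and Parp14 were below 3 months on all 4 arrays of 15 months, and Ifi35 had the smallest range of the list, 0.69.

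The step from 3 to 15 months was the comparison in which the members were most alike in direction. Age and row on the slide cannot be told apart in it. Of the 30, 3 had a positive change, while 45.8% of all genes did, and the median was -0.37 against -0.02 for all genes. In 13 members all 4 arrays of 15 months lay below all 4 of 3 months, against 6.79% of all genes, and in 1 (Ifit3) all lay above, against 5.49%. The 13 were Isg15, Stat2, Oas1a, Oasl1, Ifi44, Ddx58, Gbp2, Gbp3, Gbp4, Bst2, Xaf1, Parp14 and Trim25, at least 1 from each role. Of these, Ifi44 passed the filter on dim probes only through its 3-month arrays. Its place here and among the calls below is therefore partly fixed by that filter. None was called in the fit over 16 arrays, whose estimate of the spread includes the 29-month arrays. A fit on the 8 arrays of these 2 ages alone called 8 of 30, all lower (Isg15, Oasl1, Ifi44, Gbp2, Gbp3, Bst2, Xaf1 and Parp14), with 1.7% of all genes lower. There the change of Isg15 was -0.72 ± 0.11 (SE, limma adjusted p = 0.0136) and that of Xaf1 was -0.60 ± 0.09 (SE, limma adjusted p = 0.0113). Weighting all 16 arrays by their scatter called 6 of 30, Ifit3 higher and Isg15, Ifi44, Gbp3, Xaf1 and Trim25 lower, with 5.25% of all genes in either direction. Leaving out the 4 arrays of lowest weight, all of 24 or 29 months, called 10 (3.54% of all genes). Without 29-month array 1 the count was 1 (Isg15, with 1.28% of all genes), and without 29-month array 3 it was 1 (Ifi44, with 1.26%). T and NK cell markers had a median change of -0.10 and fibroblast markers of -0.08 in this comparison, and macrophage markers had 0.39. Adipocyte markers had a median of 0.90 (6 of 7 positive) and the 3 neutrophil markers tested had 0.67. Their part in it was not tested.

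At 24 against 15 months the direction was the opposite: 26 of 30 members had a positive change, against 50.8% of all genes, with a median of 0.39 against 0.00. In 6 members (Ifit1, Stat2, Usp18, Gbp4, Bst2 and Xaf1) all 4 arrays of 24 months lay above those of 15 months, against 4.87% of all genes, and in 0 below, against 4.69%. This comparison spans both slides, and it shares the 15-month arrays with the comparison of 15 with 3 months, so the opposite sign is partly fixed by the shared arrays. Against 3 months, the 24-month arrays gave a median of -0.02 (all genes -0.00), with Usp18 above without overlap and Ifih1, Gbp2 and Gbp3 below. The corresponding shares of all genes were 6.13% and 8.44%. Without the 4 arrays of lowest weight, 1 member was called at 24 against 15 months (Ifi44 higher, with 0.0413% of all genes). That fit kept only arrays 1 and 3 of 24 months. Ifi44 was well above background on no array at 15 months and on 2 at 24 months, so the size of this change is not well measured.

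**Figure D4:**
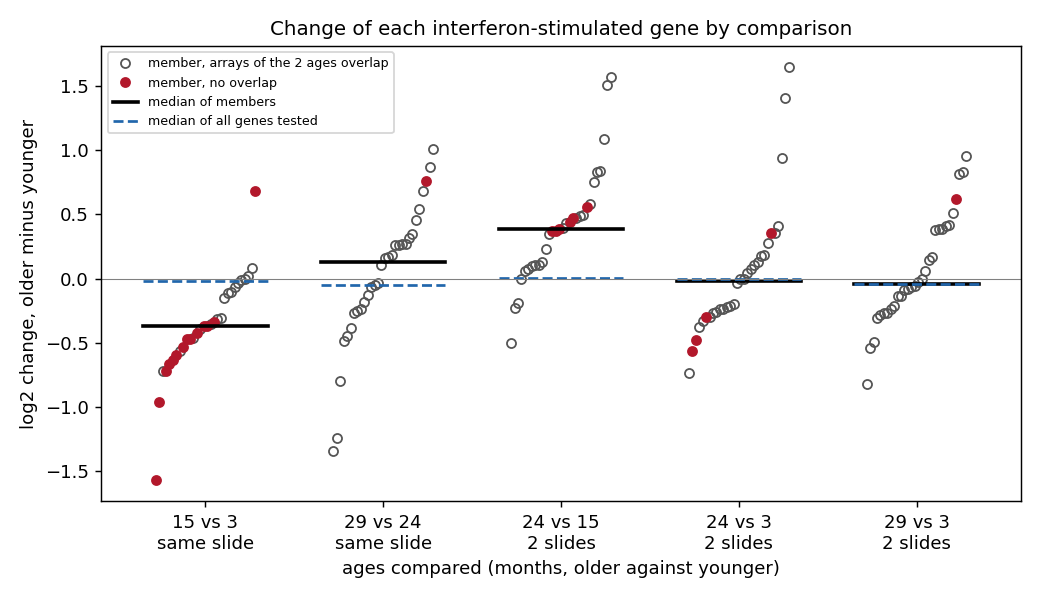
Change of each of the 30 members in 5 comparisons of ages (log2, older minus younger, limma estimates); filled points are members whose 4 and 4 arrays do not overlap, the black line is the median of the members and the dashed line that of all genes tested. At 15 against 3 months the points lie mostly below 0 (median -0.37), at 24 against 15 months mostly above (0.39), and in the other comparisons the medians lie between -0.04 and 0.13.

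The oldest muscles gave no common direction. At 29 against 24 months, within the second slide, 16 of 30 members had a positive change (41.1% of all genes) with a median of 0.13 against -0.05, and Isg15 alone did not overlap, with all arrays of 29 months above, as in 4.06% of all genes. None lay wholly below, as 2.83% of all genes did. Without 29-month array 1 the median was -0.34 and the fit called Ifit3 lower, at -0.95 (limma adjusted p = 0.0393), where 2% of all genes were called in either direction. Without array 3 the median was 0.35. At 29 against 3 months the median was -0.04, equal to that of all genes. It was -0.35 without 29-month array 1 and 0.24 without array 3. Without array 1, 4 members were called lower at 29 than at 3 months: Gbp3 at -1.27, Bst2 at -1.0, Gbp2 at -0.98 and Ifit3 at -0.77 (limma adjusted p of 0.00926 to 0.0284), where 13.6% of all genes were called in either direction. The count was 1 with array weights (Gbp3 lower, with 16.9% of all genes), 1 on the 8 arrays of these ages alone (Rsad2 higher, with 9.15%) and 6 without the 4 arrays of lowest weight (Oas1a, Oas2 and Oasl1 higher, Gbp2, Gbp3 and Bst2 lower, with 17.3%). That last fit kept only arrays 2 and 4 of 29 months. The arrays left out were picked for their scatter in these same data, so its smaller spread is partly fixed by that choice.

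The 2 within-slide steps were set against each other as a difference (29 against 24 months minus 15 against 3 months), in which a constant offset between slides cancels. A constant offset between rows does not cancel there. It adds up, because 3 and 29 months lay in row 2 and 15 and 24 months in row 1. The largest difference relative to its error was that of Isg15, 1.48 ± 0.39 (SE, limma adjusted p = 0.105). It passed the threshold under 3 of the 27 alternatives and turned sign under none. Oasl1 had 1.64 ± 0.69 (SE), and Ifi44 had a fitted 2.02 that rests on 15-month readings not well above background. A positive difference was found in 22 of the 30 members, against 45.9% of all genes. The difference subtracts the step from 3 to 15 months, in which only 3 members had a positive change, so its sign is partly fixed by that step. Without 29-month array 1 2 members were called in this difference, Isg15 at 1.1 and Ifit3 at -1.63 (limma adjusted p = 0.0296 and 0.0239), with 0.656% of all genes. Without array 3 of that age it called Ifi44 alone (0.518% of all genes).

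Interferon ligands gave no called change. Of 15 in the list 13 had a probe, and Ifnb1, Ifne, Ifnk and Ifna4 were well above background on no array. Ifng was well above background on 1 array at 24 months and 1 at 29 months, and its highest reading, -2.69, was on 29-month array 1. Ifna11 read 0.63 on 24-month array 2, above all others, where its probe ranged down to -3.32. None of the 7 ligands tested was called in any comparison.

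Receptors and signalling genes had 17 of 18 tested, of which 1 was higher and 2 were lower at 29 than at 3 months, a share near the 14.8% of all genes. Ifngr2, a chain of the interferon gamma receptor, fell: it read 2.83, 3.22, 3.19 and 3.43 at 29 months, against 4.12, 4.03, 4.14 and 4.06 at 3 months, a change of -0.92 ± 0.15 (SE, limma adjusted p = 0.0011), with no overlap. The kinase gene Jak2 fell by 0.60 ± 0.15 and the phosphatase gene Ptpn2 rose by 0.34 ± 0.10 (SE; limma adjusted p = 0.0142 and 0.0331). The call of Ptpn2 was lost under 12 of 28 alternatives, with adjusted p up to 0.152, that of Jak2 under 1, and that of Ifngr2 under none. Ifnar1, Ifnar2, Ifngr1, Irf3 and Irf8 were not called in any comparison, and Irf8 was highest on 29-month array 1 (2.27) and next on 24-month array 2 (1.42).

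Nucleic acid sensing genes outside the list had 10 of 14 tested, and 4 rose at 29 against 3 months with 0 lower, where 14.8% of all genes were called: Ifi204 by 1.05 ± 0.29, Myd88 by 0.54 ± 0.15, Tbk1 by 0.46 ± 0.12 and Ticam1 by 0.34 ± 0.08 (SE; limma adjusted p of 0.0110 to 0.0260). Of 28 alternatives, the call was lost under 9 for Myd88, 6 for Ifi204 and 4 each for Tbk1 and Ticam1. Of 35 further interferon targets tested, 4 rose at 29 against 3 months, where 14.8% of all genes were called in either direction, and 3 at 24 against 3 months (4.43% of all genes), with 0 lower. Cxcl10, a chemokine that attracts T cells, read -2.96, -5.64, -5.51 and -5.52 at 3 months, -2.82, -2.98, -1.66 and -1.80 at 15 months, -0.61, 0.19, 0.45 and 0.32 at 24 months, and 1.5, -0.23, -1.38 and 0.60 at 29 months. At 3 months it was well above background on 1 array of 4. Relative to 3 months the fitted change was 5.03 ± 0.63 for 29 months and 5.0 ± 0.63 for 24 months (SE; limma adjusted p = 0.000173 and 0.000909). With 3 arrays of 3 months not well above background its size is not well measured, and with normexp background correction it was 2.27 and 2.25. It was called under each of the 27 alternatives in both comparisons.

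The other targets called at 29 against 3 months were Pml (1.42 ± 0.31), Isg20 (1.13 ± 0.21) and Ifi27 (0.43 ± 0.13, SE). Of 28 alternatives, Ifi27 lost this call under 13 (limma adjusted p up to 0.245), Pml under 1 and Isg20 under none. Isg20 also passed at 29 against 24 months, at 0.94 ± 0.21 (SE, limma adjusted p = 0.0427), but lost that call under 19 of 28 alternatives (adjusted p up to 0.389), and its change was 0.45 when probes were averaged. At 24 against 3 months Ifi27 and Gbp6 had changes of 0.65 ± 0.13 and 1.65 ± 0.45 (SE; limma adjusted p = 0.0122 and 0.04995). The call of Ifi27 was lost under 1 of 28 alternatives and that of Gbp6 under 20 (adjusted p up to 0.139), and without 24-month array 2 the change of Gbp6 was 1.1. Gbp6 was highest on 24-month array 2, at 3.9, while the rest of the 24-month arrays held 1.26 to 2.44. B2m, Psmb8 and Tap1, which present antigen on MHC class I, were not called, and all were highest on 29-month array 1, at 5.55, 2.37 and -1.47. Of these 35 targets, 22 had their highest level on that array and 19 their lowest on 29-month array 3.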

How the data were processed

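The scanner files, 1 per array, held the intensity of each spot, and per the file headers Agilent Feature Extraction had already subtracted background to give the processed signal. The level was log2 of that signal minus the 75th percentile of the array, over 59305 spots that are not controls (62976 in all). Spots marked as outliers were left out, spots of a probe were averaged, and 93 probes with no spot left on an array were dropped. Probes that cleared background on every array of some age were kept (28456 of 55588), and a gene was its kept probe of highest mean. Genes were named through RefSeq transcripts (GRCm38.p6); 29048 probes kept the name in the files. limma 3.58.1 in R 4.3.3 fitted the 4 age means over all 16 arrays, with moderated tests, two-sided, adjusted over 21797 genes, called at 0.05. In simulated arrays the median fitted change lay near the known one. Those arrays had independent noise of equal spread at all ages and none that stood apart, so they do not test such arrays. The authors also deposited a table of log2 values; its rows followed the order of spots and not its probe names. Column medians were 4.55 to 4.69, its centring stays unknown, and it was used as an alternative only.

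Members and gene lists were chosen with earlier results of these data known. Array values are given for members called in a comparison and for the 10 of widest range (those of Isg15, Ifit3, Rsad2, Gbp3, Zbp1, Irf1 and Irf9, and of Cd3d, Gzmb, Ccl5, Gbp7 and Irgm2, were added after values were seen), and promoters for the 6 of widest range with an ISRE core, leaving out chromosome 18. Genes of the other lists are named where called, or as ligands, receptors or a few fixed targets. Alternatives covered normalization, background, filter, probe choice, arrays fitted, replicate block and each array left out. Of the signalling list, 1 gene is not reported here.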

Additional observations from a re-analysis of the deposited data

Results flagged for a closer look

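Of 120 sets of 4 arrays (30 members at 4 ages), 8 had a sample far from the other 3, with a gap to the nearest array that exceeded Dixon's 95% critical value as a share of the whole range. Chance gives about 1 such set in 20. On 29-month array 1, Ifit1 (gap 0.893 of the range), Usp18 (0.892) and Zbp1 (0.846) stood high. On 24-month array 2, Irf9 (0.948) and Irgm1 (0.842) stood high. On 15-month array 2, Bst2 stood high (0.898), at 1.08 against 0.93 to 0.95. At 3 months, Usp18 stood low on array 2 (0.864) and Parp14 on array 1 (0.86), each within an SD of 0.17 or less. The high arrays at 24 and 29 months are those on which other members of the list were high as well, and no explanation was tested.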

How the results depend on the processing

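No member was called at 24 against 3 months under any of 28 alternatives. Elsewhere the count of 0 moved. For 29 against 3 months it was 1 on the 8 arrays of these ages alone (Rsad2), 1 with array weights (Gbp3), 6 without the 4 arrays of lowest weight, and 0 to 4 when 1 array was left out, with 4 without 29-month array 1. For 15 against 3 months it was 8 on the 8 arrays alone, 6 with array weights, 10 without the 4 arrays of lowest weight, and 0 to 1 with 1 array left out. For 24 against 15 months it was 1 without those 4 arrays (Ifi44). For 29 against 24 months it was 0 to 1 with 1 array left out. For the difference of steps it was 1 with normexp, 1 with the deposited log2 values, 3 without those 4 arrays, and 0 to 2 with 1 array left out. Leaving out the 4 arrays of lowest weight was chosen after seeing the data. It kept only arrays 1 and 3 of 24 months and arrays 2 and 4 of 29 months. The median change at 29 against 24 months ranged from -0.345 to 0.352 when 1 array was left out. The change of Irf7 at 29 against 3 months, 0.418 with all arrays, ranged from -0.307 (without 29-month array 1) to 0.814 when 1 array was left out, and turned to -0.076 without the 4 arrays. Over all genes, the count called was 3220 (1539 to 3772 under the alternatives) for 29 against 3 months, 965 (474 to 1759) for 24 against 3, 22 (2 to 154) for 24 against 15, 198 (75 to 1145) for 15 against 3, 329 (7 to 1095) for 29 against 24 and 135 (48 to 959) for the difference of steps. Scaling to the median moved the median of all genes at 24 against 3 months to -0.15 and at 24 against 15 months to -0.15. With the replicate number as a block the count was 0 in every comparison; deviations of arrays with 1 number correlated at -0.471 to 0.303, so the numbers do not pair the samples. Slide as a random block could not be fitted beside age. Why these values moved was not tested. The 4 arrays an age, and 1 or 2 that stand apart, limit what the tests can show, and dim members (Ifi44, Irf7, Ifit2, Oas3, Dhx58) have only bounds on some arrays.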
